A study of Solanum lycopersicum with 40 samples.

Results

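Ripe fruit of the transgenic tomato line N6 was compared with ripe fruit of a vector control (VC). The samples were chosen by their titles, which gave 4 fruit arrays of line N6 and 4 fruit arrays of the vector control, 8 of the 40 arrays of the series. The plants were Solanum lycopersicum of the dwarf cultivar Micro-Tom. Line N6 expresses an introduced inositol polyphosphate 5-phosphatase (InsP 5-ptase), and the vector control is set against it as the plant without that gene. The labels do not give the promoter of the introduced gene, what the control vector carried, whether N6 is a single transformation event or how many fruits went into a sample. Plants of both groups grew in pots in a growth chamber, and ripe fruits of the same age were picked after 9 weeks without any treatment. The titles call the replicates biological. Each array carried biotin-labelled RNA of 1 sample on the Affymetrix tomato array, and the values are linear signals per probe set, scaled so that the trimmed mean was 500 on each array. Fruit of a further line with the same gene, N7, and of wild type (WT), with 4 arrays each, entered the same statistical fit, and leaves of N6 and VC seedlings, with 3 arrays each, were used for a comparison between organs.

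Inositol trisphosphate is a soluble messenger that opens calcium channels of internal membranes, and an InsP 5-ptase ends its signal by removing the phosphate at the 5 position of the ring. Calcium signals of this kind take part in responses to drought, cold, heat and wounding. A ripening tomato turns its chloroplasts into chromoplasts, makes ethylene and responds to it, loosens its cell walls and breaks down imported sucrose into hexoses. The comparison asks which transcripts of ripe fruit differ in a plant that expresses the phosphatase.

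Control signals did not all go with the sample titles, so the names below are those of the labels. The VC 4 array stood apart from the other VC arrays. Over the tested probe sets its log2 signals correlated at 0.895 to 0.912 with VC 1 to 3, which correlated at 0.973 to 0.990 with each other, at 0.972 with the third WT array and at 0.914 to 0.929 with the other WT arrays. The WT arrays correlated at 0.881 to 0.991 with each other. The N6 arrays correlated at 0.974 to 0.993 with each other, at 0.896 to 0.935 with VC 1 to 3 and at 0.916 to 0.927 with VC 4. Control probe sets that the array lists as reporters were at 97.95 to 5216 for 4 probe sets on VC 4 and at 0.406 to 10.14 on VC 1 to 3. On the N6 arrays the same probe sets lay between 0.199 and 51.0. One of them, RPTR-Les-M62653-1_at, was at 5161 on VC 4 and at 1198 to 4416 on the 4 WT fruit arrays. Another reporter probe set, RPTR-Les-A06498-1_at, was at 237 to 336 on the 4 fruit arrays of N7 but at 4.76 to 20.3 on the 4 fruit arrays labelled N6. The same probe set averaged 138.9 in N6 leaves, 328.1 in N6 root tips, 436.6 in N7 leaves and 303.1 in N7 root tips. It was under the floor on every WT and VC array of fruit, leaf and root tip. The introduced phosphatase gene itself was not analysed here, so the labels of the fruit arrays were not checked by it. The main results are therefore given with and without VC 4, and N6 stands for the fruit libraries labelled N6. The 8 arrays had between 54.7% and 61.3% of probe sets above a signal of 50, the floor to which lower signals were set before taking log2. Where some arrays of the dimmer group lay under the floor, a fold is a lower bound.

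In N6 fruit, transcripts for small heat shock proteins, photosystem subunits, the ethylene signalling protein EIN2, a cell wall invertase and several stress proteins were several-fold lower than in VC fruit. The invertase inhibitor CIF1, the lipoxygenases LOX1.1 and TomloxE, the ethylene receptors ETR1, ETR2 and ETR6 and the metal transporter Nramp2 were higher. Of 6208 probe sets tested, 1087 (17.5%) were called at an adjusted p under 0.05 (limma, Benjamini-Hochberg, two-sided). Of these, 553 were higher (8.91% of those tested) and 534 were lower (8.60%). With scaling to the array median, 648 were higher and 421 lower. As deposited, 146 called probe sets were over 2-fold higher and 308 over 2-fold lower, 18 were over 4-fold higher and 98 over 4-fold lower. Without VC 4, 1678 (27.0%) were called, 921 higher (14.8%) and 757 lower (12.2%), of which 310 were over 2-fold higher and 388 over 2-fold lower. The same 1021 probe sets were called both ways with the same sign, 66 only with VC 4 and 657 only without it, and none changed sign. On 393 of the 1087 called probe sets, VC 4 lay past the midpoint from the mean of VC 1 to 3 to the mean of N6. The same held for 1027 of the 1678 probe sets called without VC 4. When the fit held only N6 and VC arrays, 749 probe sets were called. The median log2 difference over all tested probe sets was 0.05 with VC 4 and 0.07 without it.

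**Figure D1:**
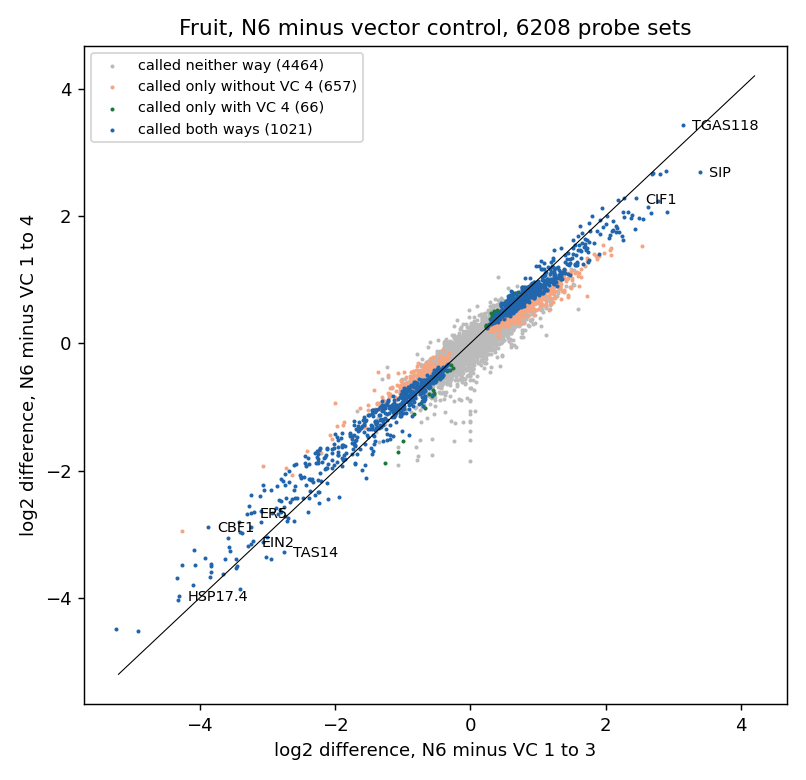
Each point is 1 of the 6208 tested probe sets, placed by its log2 difference between N6 and VC 1 to 3 (x axis) and between N6 and all 4 VC arrays (y axis), with colours for the 4 combinations of calls. Of the 1021 probe sets called both ways, 768 lie nearer to 0 on the y axis than on the x axis, while TGAS118 and TAS14 lie farther from it, and no called point lies in a quadrant of opposite signs.

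The 4 N6 signals and the 4 VC signals did not overlap on 1183 probe sets (19.1%), with N6 above VC on 600 (9.66%) and below it on 583 (9.39%). A total of 868 probe sets were both called and free of overlap. Of the called lower probe sets, 68 had all N6 arrays at or under the floor and all VC arrays above it. Of the called higher ones, 9 had all VC arrays at or under the floor and all N6 arrays above it. Only 628 tested probe sets carried a gene symbol, and 150 of these (23.9%) were called, 55 higher and 95 lower. Of 590 genes with a symbol, 107 were called with and without VC 4 in the same direction, 39 higher and 68 lower. The 14 highest and the 14 lowest of these are described below. As they were chosen by these calls, their counts are a description: the groups did not overlap for 24 of the 28, and for 28 against VC 1 to 3, where 41.1% of all tested probe sets were free of overlap. Set against WT in place of VC, 1006 probe sets (16.2%) were called, 435 higher (7.01%) and 571 lower (9.20%), and 22 of the 28 were called with the same sign, 9 of the higher and 13 of the lower ones.

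**Figure D2:**
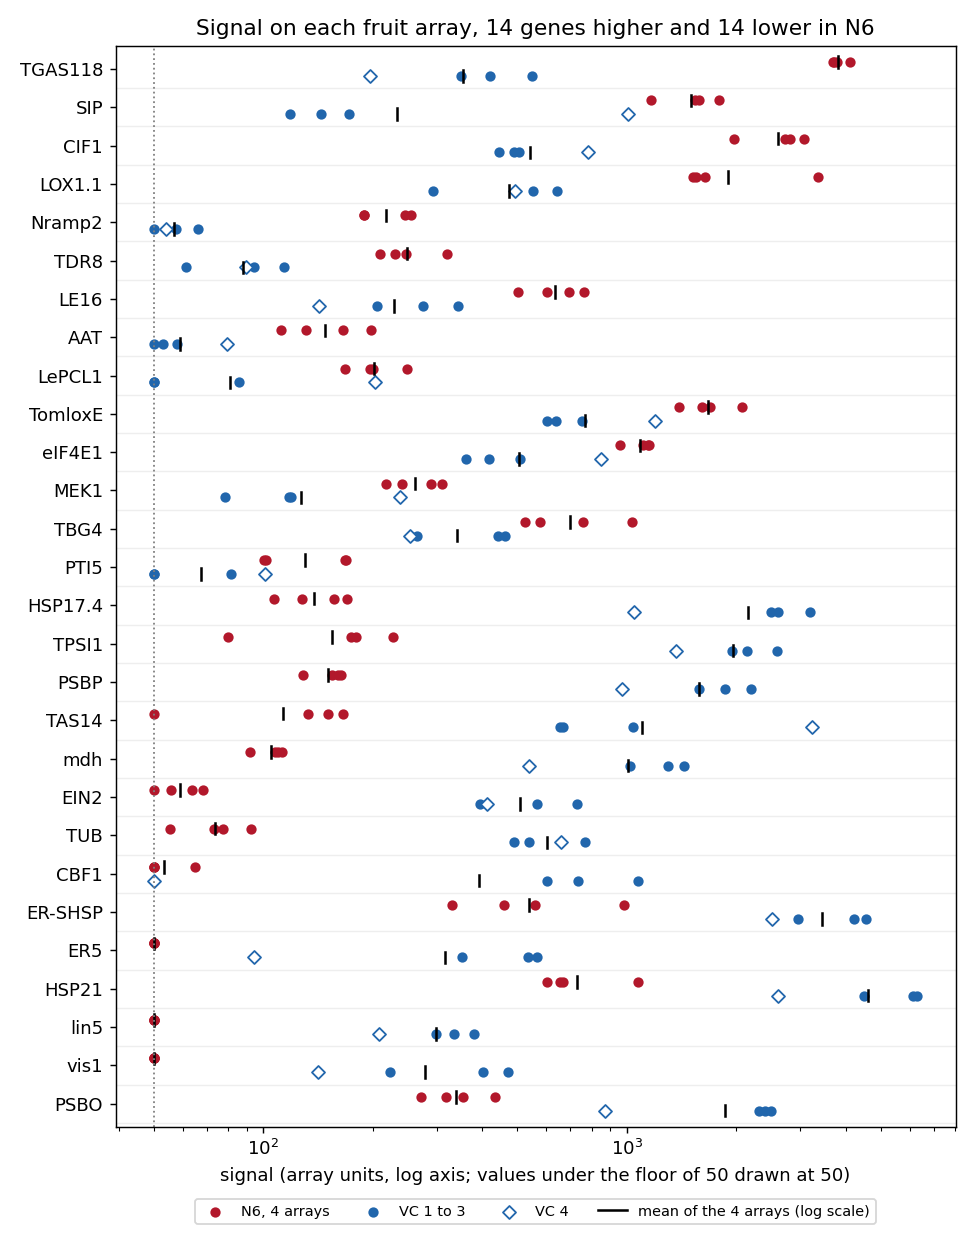
Signal on each fruit array (log axis) for the 28 named genes, the 14 higher ones above the 14 lower ones, with N6 in red above VC in blue, VC 4 as an open diamond and a black bar for the mean of log2 signals. The groups are apart for 24 genes, and overlap through VC 4 for LePCL1, MEK1, PTI5 and CBF1.

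The gene with the highest difference was TGAS118, which encodes a protein of the gamma-thionin or defensin family. Its signals were 3715, 3682, 4113 and 3777 on the 4 N6 arrays, against 349.5, 548, 419.9 and 196.8 on the VC arrays. The lowest N6 signal lay far above the highest VC signal. The log2 difference was 3.43 (SE 0.37, adjusted p = 7.03e-06), a 10.8-fold difference, and 8.85-fold without VC 4. SIP had signals of 1795, 1538, 1164 and 1581 in N6, against 171.6, 144, 118.3 and 1007 in VC. Here VC 4 alone came near the N6 arrays, and the difference was 6.45-fold with it (adjusted p = 0.00385) and 10.5-fold without it (adjusted p = 2.21e-05).

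Sucrose imported into the fruit is split by invertases, which a small inhibitor protein can block. CIF1, the invertase inhibitor, had signals of 2731, 3079, 1966 and 2820 in N6, against 443.9, 488.5, 503.8 and 779.9 in VC. No VC array came near the N6 arrays, VC 4 included. It was 4.84-fold higher in N6 (log2 2.27, SE 0.20, adjusted p = 9.51e-07). The cell wall invertase lin5 had signals of 24.2, 32.7, 31.9 and 41.1 in N6, each under the floor, against 298.1, 335.5, 380.2 and 208 in VC. It was at least 5.96-fold lower in N6 (adjusted p = 2.51e-06) and at least 6.73-fold lower without VC 4. The vacuolar acid invertase AI, the third measured member of its list, had signals of 6977 to 8665 in N6 and 6773 to 8167 in VC, which overlap (adjusted p = 0.66). The list on invertases and their inhibitor thus had 1 member called higher, 1 lower and 1 not called of 3 tested, the same without VC 4, and 3 further members did not pass the filter. Only 2 of the 3 were above the floor in both groups, since lin5 passed the filter through the groups where it was high. Over all probe sets 8.91% were called higher and 8.60% lower, and 14.8% and 12.2% without VC 4.

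Of 11 tested genes for sucrose and hexose use, 1 was called higher and 3 lower, with and without VC 4, against 8.91% and 8.60% of all probe sets. Sucrose phosphate synthase SPS, an enzyme of sucrose synthesis, averaged 3766 ± 491 in N6 and 2819 ± 380 in VC (SD, n = 4 each), a 1.34-fold difference (adjusted p = 0.021). Sucrose synthase sus3, which cleaves sucrose, had 1591, 1569, 1552 and 1526 in N6, against 2538, 3055, 2456 and 2292 in VC. It was 1.65-fold lower in N6 (adjusted p = 0.000109), with tight N6 signals all below the VC range. The fructokinase FRK1 was 1.77-fold lower in N6 (adjusted p = 0.00233). The sucrose transporter SUT4 had 169.4 to 217.8 in N6 and 275.2 to 502.1 in VC, a log2 difference of -0.87 (adjusted p = 0.0198). The hexokinases hxk1 and Hxk2, the fructokinases FRK2 and FRK3 and the hexose transporters HT2 and HT3 were not called. Under a scaling to the array median, these 4 calls were lost. The call of SPS was also lost without VC 2, N6 1 or N6 3, and that of SUT4 without VC 2 or N6 4.

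Only 7 genes of inositol phosphate and calcium signalling were on the array under known symbols, and 6 were tested. None was called higher and 1 lower, with and without VC 4, where 8.60% and 12.2% of all probe sets were lower, and the median log2 difference was -0.04. The lower gene was GolS-1, galactinol synthase, which joins galactose to inositol at the start of raffinose synthesis. Its signals were 102.9, 220.4, 208.4 and 189.2 in N6, against 1449, 932.3, 1092 and 509.3 in VC, a 5.38-fold lower level in N6 (adjusted p = 0.00066). The groups did not overlap. The inositol monophosphatases IMP1 and IMP3, which free inositol from its monophosphate, the calcium-dependent protein kinases CDPK1 and cpk1 and the calcium pump LCA1 were not called. IMP3 had 992.7 to 1638 in N6 and 685.9 to 2272 in VC.

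In ethylene signalling and synthesis, 4 of 21 tested genes were called higher and 2 lower, beside 8.91% and 8.60% of all probe sets, and 6 higher and 3 lower without VC 4, beside 14.8% and 12.2%. EIN2, the membrane protein that carries the signal from the receptors to the nucleus, had signals of 32.7, 63.8, 68.2 and 55.6 in N6, against 566.2, 731, 394.9 and 412 in VC. All N6 arrays were near the floor and all VC arrays far above it. The difference was 8.64-fold (log2 -3.11, SE 0.22, adjusted p = 8.12e-08) and 9.27-fold without VC 4. Among the receptors, ETR2 had 1474, 1738, 1486 and 1888 in N6, against 873.2, 697.2, 761.3 and 1283 in VC, a 1.86-fold higher level (adjusted p = 0.0016). ETR6 was 1.89-fold higher (adjusted p = 0.00315), with 449.4 to 587.8 in N6 and 227.6 to 335.9 in VC, and ETR1 was called too (log2 0.57, adjusted p = 0.0327), though not without VC 1, VC 2, VC 3, N6 1, N6 2 or N6 4. ETR5 reached the threshold only without VC 4 (adjusted p = 0.119 with it and 0.00744 without). ETR3, the receptor known as Never-ripe, and ETR4 had overlapping groups and were not called. The transcription factor EIL1, which acts after EIN2, had 2472 to 2951 in N6 and 1773 to 2236 in VC (log2 0.39, adjusted p = 0.0111), and lost its call under median scaling.

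The last step of ethylene synthesis is made by ACC oxidase. ACO4 had 285.1, 324.4, 235.7 and 308.5 in N6, against 1469, 1339, 969.2 and 808.8 in VC, and was 3.89-fold lower in N6 (adjusted p = 8.61e-06). Its N6 signals lay below all VC signals. ACO6 had 466.5, 575.5, 522.8 and 469.2 in N6 and 1396, 1363, 1389 and 952.5 in VC, a 2.49-fold lower level (adjusted p = 0.000304). The ripening-related ACC synthase genes ACS2 and ACS4, which act a step earlier, were not called with all arrays. ACS2 had 1363 to 2586 in N6, 3178 to 4136 in VC 1 to 3 and 717 in VC 4, so that its call without VC 4 (adjusted p = 0.0211) was absent with it (adjusted p = 0.532). E8, a ripening gene that responds to ethylene, overlapped between groups at 5920 to 8963 in N6 and 4518 to 9476 in VC.

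Among 14 tested ERF and DREB transcription factors, 2 were called higher and 3 lower, and 3 higher and 4 lower without VC 4. Over all probe sets 17.5% were called in either direction, and 27.0% without VC 4. CBF1, a factor of the cold response, had signals of 43.9, 45.8, 46.9 and 65.0 in N6. In VC it had 736, 1072 and 604.2 on the first 3 arrays and 5.86 on VC 4. The groups thus overlapped through VC 4 alone. The log2 difference was -2.88 (SE 0.81, adjusted p = 0.0224) with VC 4 and -3.87 (adjusted p = 0.000183) without it. As 3 N6 arrays and VC 4 lay under the floor, the value with VC 4 is set in part by the floor, and the size without VC 4 is a lower bound. The call was lost with any of VC 1 to 3 or N6 1 to 3 left out. PTI5, an ERF factor known from binding to the tomato resistance kinase Pto, had 168.5, 101.9, 100.7 and 167.9 in N6, against 81.7, 44.5, 44.6 and 101 in VC, and was 1.94-fold higher (adjusted p = 0.00936). PTI4 was 1.77-fold higher (adjusted p = 0.0423), a call lost with 6 single arrays left out in turn: VC 1, VC 2, VC 3, N6 1, N6 2 and N6 4. DREB1 was 1.41-fold lower (adjusted p = 0.0257), with its call lost without VC 1, VC 2, N6 1, N6 2 or N6 3, and JERF3 lower by a log2 difference of -0.32 (adjusted p = 0.0362), with its call lost without VC 1, VC 2, VC 3, N6 1 or N6 4.

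The photosynthesis genes were mostly lower: 6 of 8 tested genes were called lower and none higher, 7 without VC 4, against 8.60% and 12.2% of all probe sets called lower. The median log2 difference was -1.55, against 0.05 over all tested probe sets. PSBP, a photosystem II protein of oxygen evolution, had 128.4, 163.3, 154.8 and 160.1 in N6, against 2201, 1857, 1578 and 972.6 in VC. The difference was 10.5-fold (log2 -3.39, SE 0.23, adjusted p = 8.01e-08). PSBO, its partner in that complex, had 271.4 to 432.6 in N6, 2316 to 2500 in VC 1 to 3 and 870.7 in VC 4, and was 5.50-fold lower (adjusted p = 7.27e-05). The light-harvesting protein gene CAB4 was 5.40-fold lower (adjusted p = 9.51e-07). The electron carrier plastocyanin, PETE, had 793.9, 831.5, 909.5 and 946.6 in N6, against 3199, 3758, 3613 and 1271 in VC (log2 -1.65, adjusted p = 0.00203). PsbQ and PSAD were called lower as well. PSBR passed the test only without VC 4 (adjusted p = 0.104 with it, 0.0165 without), and CAB6A did not pass. Of the 6 markers of green tissue, all of them photosynthesis genes, 5 were called lower, and their summed signal was 543 to 818 in N6, 4540 to 5385 in VC 1 to 3 and 2772 in VC 4. The summed signal of 15 ripe-fruit markers was 48160 to 63700 in N6, 56080 to 71480 in VC 1 to 3 and 46820 in VC 4. Of these 15, 2 were called higher and 2 lower, and 1 higher and 4 lower without VC 4. Not all 15 are particular to fruit: PMEU1, among those called lower, was at 3193 to 3983 in VC leaves and averaged 308.9 in VC fruit. Over all probe sets 17.5% were called in either direction, and 27.0% without VC 4. The part of green tissue in the result was not tested, and in RNA of whole fruit fewer green cells and less RNA per cell cannot be told apart.

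The 4 tested genes of the heat shock list were all called lower, with and without VC 4, against 8.60% and 12.2% of all probe sets. Only 3 of the 4 were above the floor in both groups, since vis1 lay under it on all N6 arrays and passed the filter through the groups where it was high. HSP17.4, a small heat shock protein that binds unfolded proteins, had 127.7, 169.6, 107.1 and 156.8 in N6, against 3189, 2598, 2485 and 1044 in VC. It was 15.6-fold lower in N6 (log2 -3.96, SE 0.33, adjusted p = 6.46e-07) and 19.9-fold lower without VC 4, the largest downward difference among the named genes with all arrays. HSP21, its relative in plastids, had 1071, 667, 601.3 and 655.6 in N6, against 6133, 4490, 6297 and 2604 in VC, and was 6.33-fold lower (adjusted p = 6.77e-06). VC 4 was the lowest VC array for both, and still above all N6 arrays. The small heat shock gene vis1, known for an effect on fruit juice viscosity, had 6.52 to 21.72 in N6 and 141.2 to 470.5 in VC, and was at least 5.56-fold lower (adjusted p = 3.96e-05). The mitochondrial member MTSHP was lower by a log2 difference of -1.82 (adjusted p = 9.93e-06). In a wider list of 11 chaperone genes, 6 were called lower and none higher, beside 8.60% of all probe sets called lower. It added ER-SHSP, the small heat shock protein of the endoplasmic reticulum, at 985.1, 458.7, 329.5 and 559.1 in N6, against 4540, 2960, 4222 and 2505 in VC (6.43-fold lower, adjusted p = 1.17e-05), and HSP17-6 (log2 -0.92, adjusted p = 0.000577). The large chaperones HSC80 and Hsp90-1, the plastid co-chaperonin CPN21 and the immunophilins FKBP12 and CYP1 were not called, with log2 differences between -0.10 and 0.13. All called genes of this list were small heat shock proteins.

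**Figure D3:**
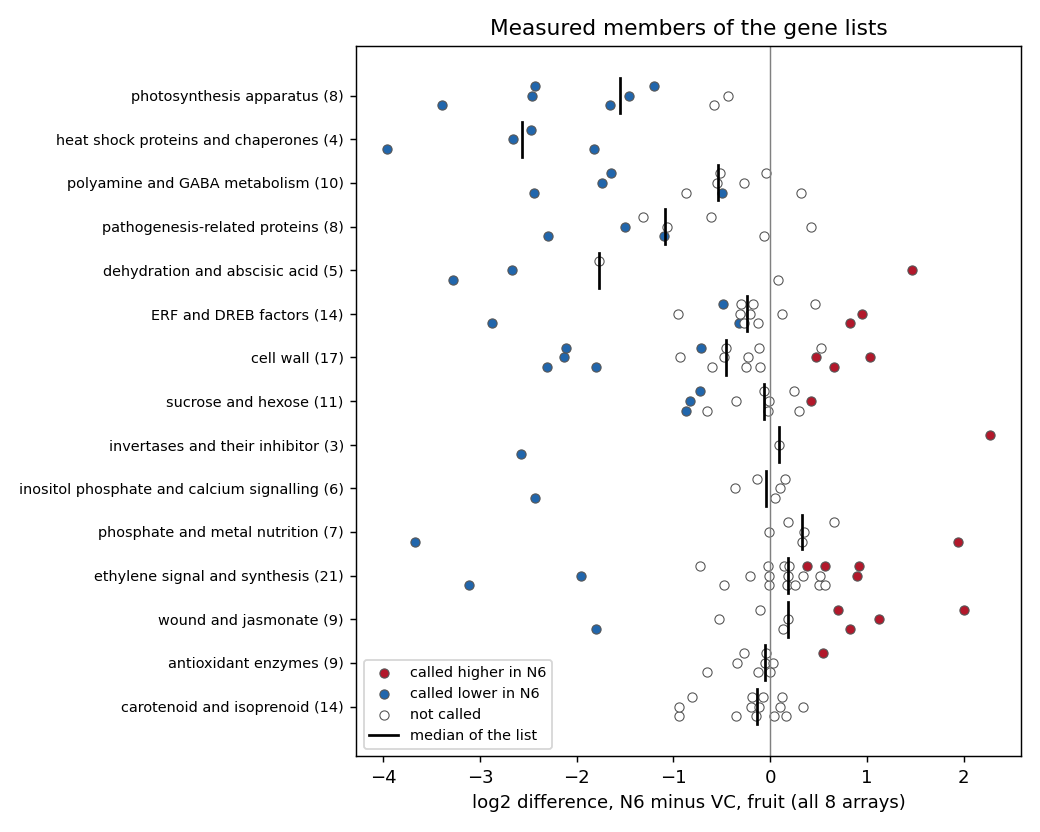
Log2 difference between N6 and VC (x axis) for every tested member of 15 gene lists (rows, with the number of members), filled red where called higher in N6, blue where called lower, and open where not called, with the median as a black bar. The lists on photosynthesis and heat shock have no member above 0, and the list on carotenoids has no called member.

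Of 5 tested genes of dehydration and abscisic acid, 1 was called higher and 2 lower, the same without VC 4. Only 4 of the 5 were above the floor in both groups, since ER5 passed the filter through the groups where it was high. The shares of all probe sets were 8.91% higher and 8.60% lower, and 14.8% and 12.2% without VC 4. The dehydrin TAS14, a hydrophilic protein of drying cells, had 24.8, 133.1, 165.6 and 150.9 in N6, against 1042, 666.6, 656.7 and 3227 in VC. VC 4 was the highest array here, and the fold was 9.70 with it (adjusted p = 0.000304) and 6.78 without it. ER5, a gene induced by ethylene and drought, had 16.2 to 24.9 in N6, all under the floor, against 534.8, 565.4, 353 and 94.5 in VC, and was at least 6.34-fold lower (adjusted p = 0.00167). LE16, a lipid transfer protein gene induced by drought, went the other way, with 762.9, 605, 694.7 and 502.8 in N6, against 274.9, 344.2, 204.9 and 142.1 in VC (2.77-fold higher, adjusted p = 0.0115). TSW12, a salt-induced lipid transfer protein gene, had 214 to 391.9 in N6, 259.6 to 906.5 in VC 1 to 3 and 8738 in VC 4, and was not called. NCED1, the gate to abscisic acid synthesis, was not called (log2 0.09).

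Lipoxygenases add oxygen to fatty acids and start the synthesis of jasmonate and of aroma aldehydes. Of 9 tested genes on wounding and jasmonate, 4 were called higher and 1 lower, against 8.91% and 8.60% of all probe sets, and 4 and 2 without VC 4, against 14.8% and 12.2%. LOX1.1 had 3351, 1522, 1646 and 1550 in N6, against 553.2, 292.7, 641.4 and 491.3 in VC, a 4.00-fold difference (adjusted p = 0.00524). TomloxE had 2076, 1608, 1389 and 1694 in N6, against 751.6, 639.6, 603.4 and 1194 in VC (2.18-fold, adjusted p = 0.00566). The plastid lipoxygenase loxD had 65.2 to 87.7 in N6, against 377.6, 369.1, 267.5 and 120.9 in VC, a 3.47-fold lower level (adjusted p = 0.00302). Lipoxygenases thus went both ways, and LOXB and loxC overlapped between groups. OPR3, a reductase of jasmonate synthesis, was higher by log2 0.82 (adjusted p = 0.0226), and COI1, the jasmonate receptor subunit, by 0.70 (adjusted p = 0.0339). Both calls were lost under median scaling and without VC 1, VC 3, N6 1 or N6 2, that of COI1 also without N6 3. HPL, which makes leaf aldehydes, was called lower only without VC 4 (adjusted p = 0.288 with it and 0.005 without).

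Of 8 tested pathogenesis-related genes, 3 were called lower and none higher, and 5 lower and 1 higher without VC 4, where 8.60% and 12.2% of all probe sets were called lower. All 3 were chitinases, enzymes that attack fungal walls. CHI14 had 67.8, 91.5, 87.6 and 65.0 in N6, against 654.4, 563.3, 704 and 79.4 in VC. VC 4 lay within the N6 range, and the fold was 4.92 with it (adjusted p = 0.0125) and 8.28 without it (adjusted p = 3.92e-05). CHI3 was 2.14-fold lower (adjusted p = 0.0148), and CHI9 lower by log2 -1.50 (adjusted p = 0.0239). Both calls were lost without VC 1 or without N6 1. The glucanase GluB was at 3728 on VC 4 and at 60.5 to 368.3 on VC 1 to 3, against 88.3 to 397.7 in N6, and was not called.

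Cell wall genes went in both directions: of 17 tested, 3 were called higher and 5 lower, and 2 and 7 without VC 4. In either direction, 17.5% of all probe sets were called with VC 4 and 27.0% without it. The polygalacturonase PG2, the main pectin-cutting enzyme of ripe tomato, had 3335, 1798, 1908 and 2079 in N6, against 8742, 6071, 10540 and 6197 in VC. All N6 arrays were below all VC arrays, and the level was 3.47-fold lower (log2 -1.80, SE 0.25, adjusted p = 0.000116). The pectin methylesterase PMEU1 had 29.7 to 61.2 in N6, 95.9 to 209.5 in VC 1 to 3 and 751.8 in VC 4. With 3 of the 4 N6 arrays under the floor, it was at least 4.33-fold lower (adjusted p = 0.00566), and at least 2.91-fold lower without VC 4. Xyloglucan enzymes cut and rejoin the hemicellulose strands between cellulose fibres. XTH3 had 142.2, 170.5, 130.6 and 190.7 in N6, against 1379, 1123, 1155 and 204.1 in VC, and was 4.96-fold lower (adjusted p = 0.00619) and 7.74-fold lower without VC 4. The related tXET-B2 lay under the floor on all N6 arrays and at 381.5, 334.1, 329.3 and 54.0 in VC, at least 4.36-fold lower (adjusted p = 0.016), a call lost without VC 1 or without VC 3. It passed the filter through the groups where it was high, and 15 of the 17 wall genes were above the floor in both groups. The β-galactosidase TBG3 was 1.57-fold higher, with 3654 to 4055 in N6 and 1928 to 2755 in VC (adjusted p = 0.000509). TBG4 was 2.04-fold higher (adjusted p = 0.0286), a call lost without VC 2, N6 1 or N6 3, and TBG1, TBG2, TBG5 and TBG6 were not called. The ripening expansin EXP1 was called with all arrays (log2 0.47, adjusted p = 0.0485) but not without VC 4 (adjusted p = 0.0938), nor without VC 1, VC 2 or any N6 array.

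TPSI1, a short RNA induced by phosphate starvation and annotated as non-coding, had 79.9, 227.6, 173.9 and 179.6 in N6, against 2139, 2592, 1950 and 1364 in VC, a 12.7-fold lower level (adjusted p = 4.25e-06). The metal transporter Nramp2 had 254.1, 189.5, 245.2 and 189.1 in N6, against 57.6, 45.8, 66.2 and 54.0 in VC, a 3.84-fold higher level (adjusted p = 6.5e-06). Both were apart on all arrays, and without VC 4 the folds were 14.3 and 3.78. They were the only members called of 7 on phosphate and metal nutrition with all arrays, beside 17.5% of all probe sets. Without VC 4, 3 were called higher and 1 lower, and the additional genes were the proton pumps LHA1 and LHA2 (adjusted p = 0.0106 and 0.0306).

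Polyamines and GABA are nitrogen compounds that build up under stress. Of 10 tested genes for them, 4 were called lower and none higher, and 6 lower without VC 4, beside 8.60% and 12.2% of all probe sets called lower. The arginine decarboxylase adc1 had 168.5, 144.1, 141.2 and 143.9 in N6, against 708.9, 1123, 589.4 and 906.4 in VC (5.42-fold lower, adjusted p = 3.3e-06). Its paralogue ADC, at 4425 to 5748 in N6 and 4719 to 6673 in VC, was not called with all arrays (adjusted p = 0.188), and was without VC 4 (log2 -0.37, adjusted p = 0.0389). The glutamate decarboxylase gad2, which makes GABA, was lower by log2 -1.65 (adjusted p = 0.00609), and the transaminase GABA-TP3, which removes it, had 47.9 to 65.3 in N6 and 182.8 to 226.8 in VC, 3.33-fold lower (adjusted p = 9.92e-06).

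The malate dehydrogenase mdh had 112.6, 107.5, 92.2 and 109.8 in N6, against 1432, 1023, 1301 and 536.8 in VC, a 9.56-fold lower level (adjusted p = 9.51e-07). It was the only member called of 4 malate dehydrogenase genes, beside 17.5% of all probe sets. The glyoxysomal, chloroplast and mitochondrial forms gMDH, chMDH and mMDH1 had log2 differences of -0.20, -0.46 and 0.10. TUB had 55.4, 73.1, 77.6 and 92.8 in N6, against 489.4, 768.3, 539.2 and 657.5 in VC (8.23-fold lower, adjusted p = 1.54e-07), with VC 4 inside the range of the other VC arrays. The MADS box gene TDR8 had 319.7, 209, 230.2 and 246.3 in N6, against 114, 61.4, 94.2 and 89.9 in VC (2.83-fold higher, adjusted p = 0.000504). The cap-binding translation factor eIF4E1 was 2.15-fold higher (adjusted p = 0.00786), at 956.3 to 1149 in N6, 361 to 507.2 in VC 1 to 3 and 850.3 in VC 4. AAT was 2.51-fold higher (adjusted p = 0.0038) and LePCL1 2.48-fold higher (adjusted p = 0.0198). In the MAP kinase cascade, which passes on stress signals, 1 of 7 genes was called higher and 1 lower, beside 17.5% of all probe sets called. The kinase kinase MEK1 had 218.2 to 309.5 in N6, 78.4 to 119.5 in VC 1 to 3 and 237.5 in VC 4 (2.06-fold higher, adjusted p = 0.0222), and the kinase MPK3 had 11.98 to 19.66 in N6 and 45.6 to 122.1 in VC (adjusted p = 0.0289). MPK3 lay under the floor on all N6 arrays and passed the filter through the groups where it was high. The calls of LePCL1, MEK1 and MPK3 each depended on single arrays: that of LePCL1 was lost without VC 1, VC 3 or N6 1, that of MEK1 without VC 1, VC 2, VC 3, N6 2 or N6 4, and that of MPK3 without any 1 array other than VC 4.

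Of the 1087 called probe sets, 937 had no symbol. Among these the log2 difference was 2.71 and 2.67 for the highest and -4.52 and -4.49 for the lowest.

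By the labels, both transgenic lines carry the same introduced gene, and N7 was set against N6 to find where they differed. The reporter probe set RPTR-Les-A06498-1_at was above the floor on all N7 fruit arrays and under it on all fruit arrays labelled N6. The identity of the fruit arrays labelled N6 was not tested, so differences between the lines are differences between arrays with these labels. Of the 6208 probe sets, 180 (2.90%) were called, 120 higher in N7 (1.93%) and 60 lower (0.966%). Without VC 4 in the fit, 281 were called, and without the third WT array 287. Both arrays enter this contrast only through the shared estimate of spread. With scaling to the array median, 101 were called, 47 higher and 54 lower. Of the genes with a symbol, 25 were called. CIP1 had 1458, 1309, 963.3 and 1185 in N7, against 171.1, 254.2, 279.8 and 269.9 in N6, a log2 difference of 2.34 (adjusted p = 8.29e-06). VC fruit had 639 to 1237, so the N6 level was the one apart from VC, 3.87-fold lower (adjusted p = 6.17e-06). The small heat shock genes HSP17.4 (log2 1.79, adjusted p = 0.00626) and ER-SHSP (log2 1.41, adjusted p = 0.0168) and mdh (log2 1.80, adjusted p = 0.00252) were higher in N7 than in N6, at levels between those of N6 and VC. HSP17.4 averaged 476 in N7, 140.3 in N6 and 2329 in VC. PTI5 was lower in N7 (44.1 on average, log2 -1.38, adjusted p = 0.00313) than in N6 (134.7), and ACO6 was lower in N7 (204.9) than in N6 (508.5; log2 -1.35, adjusted p = 0.00202), which was itself lower than VC (1275). Of the 28 named genes, these 4 (HSP17.4, ER-SHSP, mdh and PTI5) were called between the lines. LE16 averaged 1714 in N7 and 641.3 in N6 (adjusted p = 0.05).

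**Figure D4:**
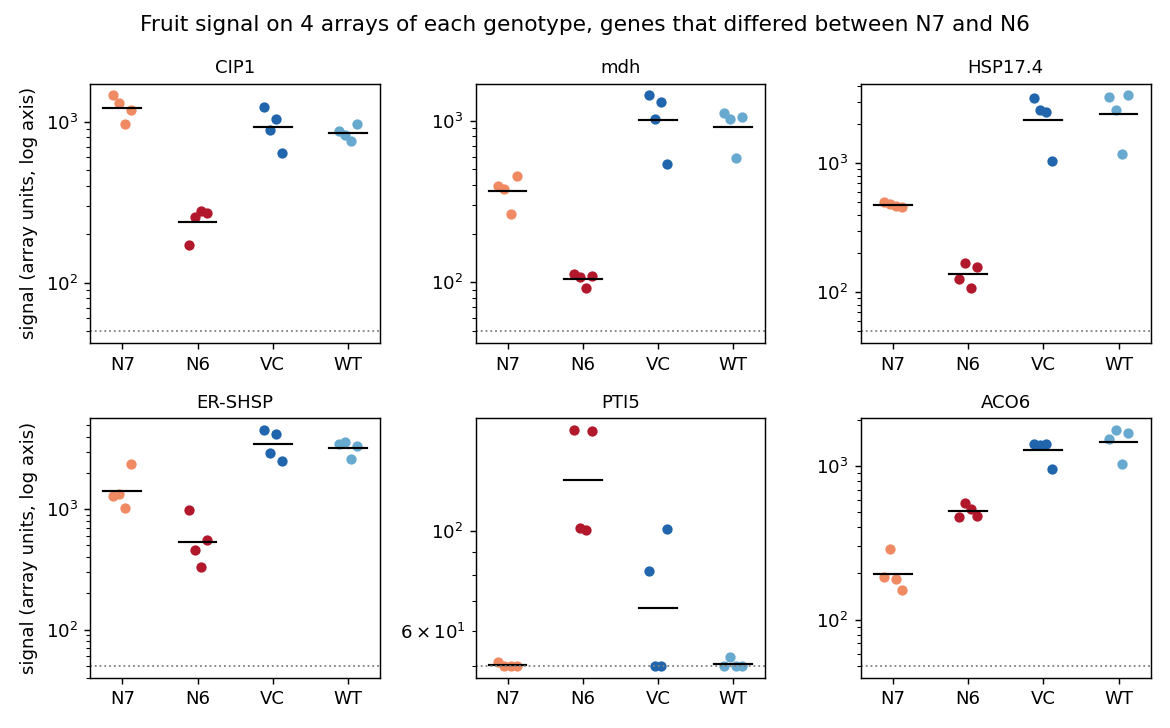
Signal on each of the 4 fruit arrays of N7, N6, VC and WT (log axes, dotted line at the floor of 50, black bar for the mean of log2 signals) for the 6 named genes called between N7 and N6. CIP1 is low in N6 alone, mdh, HSP17.4 and ER-SHSP are lowest in N6 with N7 between N6 and VC, PTI5 is highest in N6, and ACO6 is lowest in N7.

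Leaves of N6 and VC seedlings aged 10 days were used to see which differences of N6 were also found outside the fruit, though organ and age differ together. In a fit of both organs on 5597 probe sets, 1145 (20.5%) were called for N6 against VC in fruit and 493 (8.81%) in leaves. A total of 125 were called in both, which is 10.9% of the fruit calls and 25.4% of the leaf calls, and 51 of the 125 had the same sign. Across the probe sets, which are not independent and share arrays, the differences in fruit and in leaf correlated at 0.01. The N6 difference in fruit minus that in leaf was called on 755 probe sets (13.5%), 361 higher in fruit (6.45%) and 394 lower (7.04%), and on 997 without fruit VC 4. With scaling to the array median, 410 were higher and 270 lower, and the median over all probe sets moved to 0.14, against 0.00 as deposited.

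Of the 28 named genes, 21 were tested in both organs, and for 17 the fruit and leaf differences were unlike by this test, beside 13.5% of all probe sets. The 28 were chosen by their fruit difference, which enters this test, so the count is only a description. Among the 17 was vis1, which lay under the floor on all N6 and VC leaf arrays, so that its leaf difference was 0 by the floor. EIN2, low in N6 fruit, had 771.6, 573.4 and 623.9 in N6 leaves, against 756.5, 759.5 and 541.9 in VC leaves. These overlap, and the fruit difference was lower by log2 -3.05 (adjusted p = 5.68e-08). Nramp2, higher in N6 fruit, had 46.5, 82.9 and 56.5 in N6 leaves, against 199.8, 200.4 and 213.8 in VC leaves. It thus went in opposite directions, by log2 1.94 in fruit and -1.73 in leaf (difference 3.67, adjusted p = 3.44e-09). For SIP and LE16 the fruit difference exceeded the leaf difference by log2 2.81 and 2.44 (adjusted p = 0.0112 and 0.0141), and their leaf signals overlapped between N6 and VC.

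Some wall genes that were lower in N6 fruit were higher in N6 leaves. These were tXET-B2, at 644.1, 497.4 and 181 in N6 leaves, against 10.2, 23.5 and 11.3 in VC leaves (fruit minus leaf log2 -5.08, adjusted p = 6.77e-05), and XTH3, at 367.3, 346.4 and 160.4 in N6 leaves, against 27.9, 38.1 and 27.2 in VC leaves (log2 -4.76, adjusted p = 4.72e-05). CBF1 had 381.9, 499.5 and 93.4 in N6 leaves, against 11.7, 1.07 and 15.6 in VC leaves. Its leaf difference was not called (adjusted p = 0.0665), and its difference between organs was (log2 -5.26, adjusted p = 0.00109). ERF3, a factor of the same family, had 709.4, 1192 and 323.6 in N6 leaves, against 34.2, 44.4 and 21.3 in VC leaves, while its fruit difference was not called (log2 -0.96, adjusted p = 0.105). The difference of the differences was -4.66 (adjusted p = 9.64e-06). The ribonuclease gene RNALE had 22.8, 14.2 and 25.7 in N6 leaves, against 873.6, 450.8 and 222.8 in VC leaves, with overlapping levels in fruit, at 3.17 to 107 in N6 and 50.4 to 191 in VC (log2 3.06, adjusted p = 0.0473). CIF1 was not called by this test. It had 1600, 816.3 and 960.8 in N6 leaves, against 222.5, 244.7 and 263.3 in VC leaves, a log2 difference of 2.15, beside 2.27 in fruit (adjusted p = 0.87 for the difference). TGAS118 was also higher in both organs, at 1150, 917.8 and 1290 in N6 leaves, against 331.1, 299.8 and 240.6 in VC leaves. TAS14 was lower in both organs, at 32.8 to 35.7 in N6 leaves, all under the floor, against 2910, 66.2 and 239.4 in VC leaves. Its leaf difference was log2 -2.84 (limma, adjusted p = 0.0263), and fruit and leaf were not called unlike (adjusted p = 0.855).

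**Figure D5:**
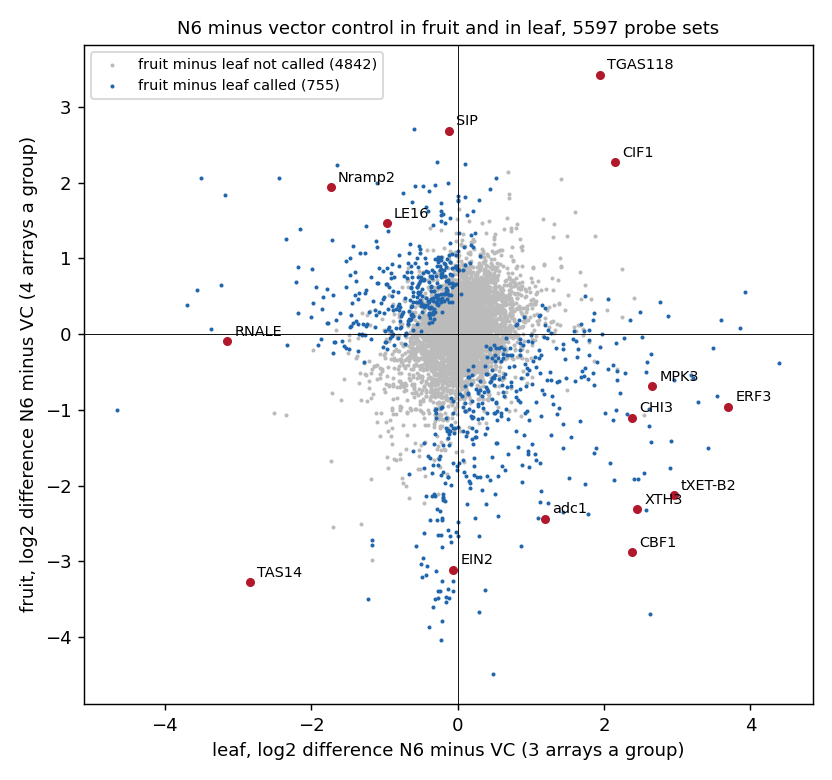
Log2 difference between N6 and VC in leaf (x axis) and in fruit (y axis) for 5597 probe sets, blue where the fruit and leaf differences were called unlike, with 15 named genes in red. CIF1 and TGAS118 lie high in both organs, EIN2 is low in fruit and near 0 in leaf, and XTH3, tXET-B2 and CBF1 are low in fruit and high in leaf.

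The condition of the RNA was described by the log2 ratio of 3' to 5' probe sets of control genes. It averaged 3.63 ± 0.36 on the N6 arrays and 4.03 ± 0.73 on the VC arrays (SD, n = 4 each; exact permutation test over 70 splits, two-sided p = 0.343), and 4.39 ± 0.15 on VC 1 to 3 (exact p = 0.0571 over 35 splits, where the smallest possible p is 0.0286). All N6 arrays, at 3.25 to 4.04, lay below VC 1 to 3, at 4.23 to 4.52, and VC 4 was the lowest array at 2.96. With this ratio as a covariate in the fit, 1634 probe sets were called with all arrays, 789 higher and 845 lower, and 1344 without VC 4.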

How the data were processed

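The deposited table holds 1 linear intensity (signal) per probe set and array. The signals come from GCOS, Affymetrix software named in the submitters' processing notes, whose version is not given in the sources used here. The trimmed mean without the highest and lowest 2% was 500 on every array, and this scaling was kept. A global scaling assumes equal total signal, so other scalings were alternatives. Signals under a floor of 50 were set to it, since dim signals have no reliable order, and log2 was taken. Differences of dim probe sets therefore depend on the floor. Probe sets above the floor on at least 4 of the 16 fruit arrays were tested (6208 of 10209, after 108 AFFX and 63 reporter probe sets were left out). A list member that passed only through the group where it is high had to differ, so counts of list members describe those that passed.

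The 16 fruit arrays were fitted with limma 3.58.1 in R 4.3.3, with a mean per genotype and a variance trend. Adjusted p-values are two-sided Benjamini-Hochberg values over all probe sets of the fit, and a call is an adjusted p under 0.05. All genotypes share the estimate of spread. Leaf and fruit arrays were fitted together for the contrast between organs, on probe sets also above the floor on at least 3 leaf arrays. The fit was also run on simulated data with known changes, whose outcome is not given here. Precision is limited by the number of arrays.

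Symbols came from the platform annotation, 909 probe sets in all, of which 885 were matched by gene identifier to a gene table of assembly SLM_r2.1. Probe sets of gene families may share sequence. Named genes are those called with and without VC 4 in the same direction, the 14 highest and the 14 lowest, 1 probe set a gene, plus up to 4 members of each list and those called in the further contrasts. List members outside this rule were named after their values were seen. The comparison, the lists and the tests were chosen with earlier results of these data known. Replicate numbers were not used as pairs in the main fit. The correlations of same-numbered N6 and VC deviations were -0.01, 0.28, 0.38 and 0.11. Arrays of unlike number were not compared in this way, so these values do not settle whether the numbers pair the samples.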

Additional observations from a re-analysis of the deposited data

Results flagged for a closer look

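In 114 groups of 4 arrays checked among the named genes and the 3' to 5' ratio, 10 had an array far from the other 3 on the log2 scale by Dixon's criterion. Chance flags about 1 in 20 such groups. On VC 4 these were PSBO at 870.7, CHI14 at 79.41, XTH3 at 204.1, tXET-B2 at 54.02, ACO6 at 952.5 and ERF3 at 167.3, and VC 4 was below the other VC arrays each time. On N6 1 they were LOX1.1 at 3351, PMEU1 at 61.21 and adc1 at 168.5, each above the other N6 arrays. On N6 4 it was CBF1 at 65.02, the only N6 array above the floor. For PMEU1 and CBF1 all other N6 arrays were set to the floor, so any value above it is flagged. The rate of 1 in 20 does not apply to these flags.

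The N6 difference in fruit was unlike that in leaf for 33 named genes, by the contrast of both organs in limma, with adjusted p under 0.05. Over all probe sets 13.5% were called by this contrast. Some of these genes were named because the contrast called them, and others for a large fruit difference, which enters it. Their count is therefore only a description. For 11 genes the fruit difference was the higher one, by log2 3.67 for Nramp2, 3.06 for RNALE, 2.81 for SIP, 2.44 for LE16, 2.13 for LOX1.1, 1.89 for GPXle-2, 1.70 for ETR2, 1.64 for TomloxE, 1.15 for MEK1, 1.09 for eIF4E1 and 0.82 for SPS. For 22 genes it was the lower one. The log2 values were -5.26 for CBF1, -5.08 for tXET-B2, -4.76 for XTH3, -4.66 for ERF3, -3.96 for TPSI1, -3.63 for adc1, -3.49 for CHI3 and -3.35 for MPK3. They were -3.12 for PSBP, -3.05 for EIN2, -3.04 for mdh, -2.96 for ER5, -2.83 for CIP1, -2.56 for HSP21, -2.54 for TUB, -2.47 for vis1 and -2.44 for loxD. They were -2.34 for GABA-TP3, -2.22 for CAB4, -2.17 for PSBO, -2.13 for ACO4 and -1.69 for ACO6. As vis1 lay under the floor on all N6 and VC leaf arrays, its leaf difference was 0 by the floor and its value repeats the fruit difference. In leaves LOX1.1 was above the floor on VC 2 alone (66.24), and TomloxE was under it on all N6 arrays (38.93 to 42.74).

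Reporter probe sets, which no comparison used, were above the floor on VC 4 at 5216, 5161, 333.7 and 97.95, and on N6 2 at 51.0. On the other N6 and VC arrays they were under the floor.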

How the results depend on the processing

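For N6 against VC, 1087 probe sets were called with all arrays and 1678 without VC 4. With array weights the counts were 3491 and 3437, and with the 3' to 5' ratio as a covariate 1634 with all arrays. Without VC 4 and the third WT array 2399 were called, an alternative planned for the count without VC 4 and set beside the count with all arrays after seeing the data. N7 against N6, with 180 calls, had 101 under median scaling, 1912 with array weights, 522 with the covariate and, both chosen after seeing the data, 287 without the third WT array and 281 without VC 4. The difference between fruit and leaf, with 755 calls, had 2476 with array weights. The cause was not tested for these. Leaving out 1 array of the compared groups at a time gave 687 (without VC 1) to 1678 (without VC 4) calls for N6 against VC, 1191 to 1495 with VC 4 already left out, 83 to 161 for N7 against N6 and 594 to 997 for fruit against leaf. For N7 against N6 the counts were 95 without N6 2, 83 without N6 3, 108 without N7 1, and 97 without N7 2 and without N7 4. With the replicate number as a block the counts were 923, 1537 without VC 4, 142 for N7 against N6 and 669 for fruit against leaf. The other alternatives kept these counts within 1.5 times. Over 22 settings, 37 of 69 called genes stayed called, among them 21 of the 28 highest and lowest, and none reversed. Of the other 7, LE16 and TomloxE lost their calls only with WT as the control (log2 0.94 and 0.61) and PTI5 only at a floor of 100 and in the fit of N6 and VC arrays alone, and CBF1, LePCL1, MEK1 and TBG4 in 6 to 11 settings. Median scaling ended 16 calls, and the fit of N6 and VC arrays alone 18. Signals near the floor limit what can be said of dim genes.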

Other observations

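Of 14 tested carotenoid and isoprenoid genes none was called by limma with VC 4, beside 17.5% of all probe sets, and 4 had an unadjusted p under 0.05. Without VC 4, 5 were called lower, beside 12.2% of all probe sets: DXS, DXR, LCY1, NSY and FPPS1. DXR, an early enzyme of plastid isoprenoid synthesis, had 509.4 to 618.4 in N6, 1198 to 1910 in VC 1 to 3 and 416.1 in VC 4 (adjusted p = 0.013 without VC 4 and 0.16 with it). LCY1, a lycopene cyclase that takes lycopene on to carotene, had 283.4 to 390 in N6, 687.1 to 914.1 in VC 1 to 3 and 266.6 in VC 4 (adjusted p = 0.00432 without VC 4). The fruit phytoene synthase Psy1, which makes the first carotenoid, had 6138 to 8710 in N6 and 5012 to 7947 in VC. Of 9 MADS box and related ripening genes, 1 was called, TDR8, beside 17.5% of all probe sets. The ripening regulator RIN had 2836 to 3376 in N6 and 2311 to 3311 in VC.

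Among 9 antioxidant enzymes, 1 was called higher, beside 8.91% of all probe sets. It was the glutathione peroxidase GPXle-2, at 1866 to 2611 in N6 and 1239 to 2192 in VC (1.46-fold, adjusted p = 0.0323, lost without VC 1, VC 2, VC 3, N6 2, N6 3 or N6 4). Catalase, superoxide dismutase and ascorbate peroxidase genes were not called. Of 11 genes for translation factors and ribosomal proteins, 1 was called, eIF4E1, beside 17.5% of all probe sets. Of 4 phospholipase D genes, whose enzymes cut membrane lipids, 1 was called higher, beside 8.91% of all probe sets. It was PLDa2, at 58.3 to 72.4 in N6 and at or under the floor in VC (adjusted p = 0.036, lost without VC 1, VC 2, VC 3, N6 2 or N6 4). PLDa2 passed the filter only through N6 and N7, where it was high. None of the 2 Aux/IAA genes, the 3 root markers or the 3 flower markers that passed the filter was called by limma, beside 17.5% of all probe sets. Of these, 0 had an unadjusted p under 0.05. The seed markers did not pass the filter. TPRP-F1 was placed on the root list without a check of where it is expressed, so its signal is not read as root tissue. It was at 587.5 on VC 4 and at 0.25 to 24.4 on the other 7 arrays.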
